A study of Mus musculus with 12 samples.

Results

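The envelope cross-linking and scaffold genes are 9 genes of the cornified envelope that lie outside the envelope gene complex of chromosome 3. They are *Tgm1*, *Tgm3*, *Tgm5*, *Evpl*, *Ppl*, *Scel*, *Cnfn*, *Cst6* and *Casp14*. They were chosen by name, as the loci of the deposited count table whose single gene name was one of these, and they make up 9 of the 21947 loci of the table. The RNA-Seq data came from primary keratinocytes of newborn BALB/c mice, in which suprabasin (*Sbsn*), a protein secreted by suprabasal keratinocytes, was targeted by RNA interference. All cultures were grown at 0.05 mM calcium and were driven to differentiate by raising calcium to 0.12 mM. The siSbsn cultures received 75 pmol of an siRNA pool against *Sbsn* with the HiPerfect reagent, the siControl cultures received the same amount of a non-targeting pool, and the third group is labelled no siRNA, with RNA collected 48 hours after transfection. Of the 12 libraries, 6 belonged to batch 1 (2 per condition, for 3 conditions) and 6 to batch 2 (3 siControl, 3 siSbsn, none without siRNA). The labels do not say what a batch is, and whether the libraries of a group came from separate animals or litters is not given, so p-values measure the spread between these libraries, which may be technical.

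The cornified envelope is the insoluble protein shell that replaces the plasma membrane of a keratinocyte at the end of its differentiation. Plakin proteins and their partners first form a scaffold under the membrane, transglutaminases then cross-link precursor proteins onto it, and proteases with their inhibitors control the enzymes and finish the cell's remodelling. Calcium starts this programme in culture and is also the cofactor of the transglutaminases.

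All coordinates are those of mm10. The cross-linking enzymes are *Tgm1* (chr14:55700009-55713492, minus strand), the membrane-anchored transglutaminase 1, *Tgm3* (chr2:130012340-130050399, plus strand), a transglutaminase activated by proteolysis, and *Tgm5* (chr2:121046111-121085759, minus strand), another epidermal transglutaminase. The scaffold plakins are envoplakin, *Evpl* (chr11:116220559-116238091, minus strand), and its partner periplakin, *Ppl* (chr16:5086291-5132481, minus strand). Sciellin, *Scel* (chr14:103513341-103613346, plus strand), and cornifelin, *Cnfn* (chr7:25367616-25369724, minus strand), are precursor proteins built into the envelope. Cystatin E/M, *Cst6* (chr19:5344705-5349574, minus strand), inhibits cysteine proteases, and *Casp14* (chr10:78711995-78718293, minus strand) is caspase-14, a protease of terminal differentiation. Reads were counted per gene, so isoforms cannot be told apart, and a locus that joins *Ppl* with *Ubn1*, with at most 22 counts in a library, was left out. The longest annotated transcripts ranged from 698 bases for *Cnfn* to 6384 for *Evpl* and 6217 for *Ppl*.

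RefSeq (GRCm38.p6, the assembly of mm10) gave promoters for 6 of the 9 genes, and *Evpl*, *Ppl* and *Cst6* had no entry. Each promoter runs from 250 bases before to 50 bases after the annotated start. The promoters of *Scel* and *Cnfn* are shown because these genes had the highest and the lowest log2-fold change of siSbsn over siControl, and that of *Tgm3* because it was the gene whose level did not separate the batches. Capitals mark matches to the AP-1 motif TGANTCA or the TATA motif TATAAA, both searched on both strands, and the lines read 5′ to 3′ on the gene's strand. They lie at chr14:103513091-103513390 (plus strand), chr7:25369675-25369974 (minus strand) and chr2:130012090-130012389 (plus strand).
Scel: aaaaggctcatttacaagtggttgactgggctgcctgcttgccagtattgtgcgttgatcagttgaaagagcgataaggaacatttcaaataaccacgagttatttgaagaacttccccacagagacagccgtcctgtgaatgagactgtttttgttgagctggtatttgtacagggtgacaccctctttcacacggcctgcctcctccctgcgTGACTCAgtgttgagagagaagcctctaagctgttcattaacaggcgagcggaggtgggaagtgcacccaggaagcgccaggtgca
Cnfn: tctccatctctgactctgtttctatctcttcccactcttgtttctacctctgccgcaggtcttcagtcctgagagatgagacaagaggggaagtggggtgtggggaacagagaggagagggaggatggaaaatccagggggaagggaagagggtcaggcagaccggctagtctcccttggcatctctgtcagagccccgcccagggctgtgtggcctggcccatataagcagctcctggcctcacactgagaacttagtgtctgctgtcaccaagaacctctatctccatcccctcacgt
Tgm3: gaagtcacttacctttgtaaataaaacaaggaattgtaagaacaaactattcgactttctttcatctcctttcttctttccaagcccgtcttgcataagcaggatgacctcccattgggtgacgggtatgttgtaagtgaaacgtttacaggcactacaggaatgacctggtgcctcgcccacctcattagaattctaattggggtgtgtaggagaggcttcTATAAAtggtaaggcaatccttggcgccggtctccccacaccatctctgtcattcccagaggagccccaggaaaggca

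Of the 7 promoters of the 6 genes, the AP-1 motif was in 1, that of *Scel*, as TGACTCA at 36 bases before the start. AP-1 is a transcription factor family active in differentiating keratinocytes. The motif was in 7.808% of the 32851 RefSeq promoters of this length. The TATA motif was in 1 of the 7, that of *Tgm3*, at 28 bases before the start, and in 13.616% of all promoters. The GC box GGGCGG was in 2 of the 7, 1 of *Cnfn* and 1 of *Tgm1*, and in 35.658% of all promoters. A match describes the letters of the window and was not taken as a binding site.

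Total counts per library ranged from 27934836 to 49553923. Batch separated the libraries along the first principal component of all loci, which held 59.7% of the variance. Of 7 keratinocyte markers, 6 had a locus of their own, none at 0, with a summed level of 20542 to 55522 CPM (the count as a share of the library size after TMM scaling, in parts per 1e+06). On the second component, siControl batch 1 replicate 1 stood apart at -70.8, against -24.7 to 32.5 in the other libraries. The value of -24.7 was that of siControl batch 2 replicate 3, against -3.76 to 3.71 in the other batch 2 libraries. On the first component that library lay at 29.6, against 41.2 to 46.3 in the others of batch 2. *Sbsn* was not lowered in the library labelled siSbsn batch 1 replicate 1, which had 1965 CPM, while replicate 2 had 696 CPM and the siControl libraries of batch 1 had 1189 and 1356 CPM. In batch 2 *Sbsn* was 121 to 125 CPM with siSbsn and 332 to 459 CPM with siControl. The main differences below are also given without one or both of these numbered-1 libraries. All 9 genes passed the filter on low counts in every comparison, with *Tgm3* the lowest at 100 to 186 counts per library.

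Levels were compared between genes as CPM per kb of the longest annotated transcript, a scale on which *Cnfn* stood first with a median of 686 over the 12 libraries. *Casp14* followed at 90.1, *Ppl* at 79.5, *Evpl* at 78.5 and *Tgm1* at 76.6 CPM per kb. *Scel* was at 41.7 and *Cst6* at 27.4 CPM per kb. The value of *Cst6* rests on a longest transcript of 3951 bases, from 3 annotated transcripts. Shorter ones were not tried, so its level may be understated and its place below *Scel* may depend on this choice. In CPM the medians were 108 for *Cst6* and 102 for *Scel*. *Tgm5* (2.25) and *Tgm3* (0.971) were the lowest, so *Tgm1* was the main transglutaminase transcript of the 3 in these cultures. *Cnfn* exceeded *Casp14*, *Cst6* exceeded *Tgm5*, and *Tgm5* exceeded *Tgm3* in 12 of 12 libraries. The genes in the middle of the order were not separated by their spread: *Casp14* exceeded *Ppl* in 7, *Ppl* exceeded *Evpl* in 10 and *Evpl* exceeded *Tgm1* in 6 of 12 libraries. *Tgm1* exceeded *Scel* in 10 and *Scel* exceeded *Cst6* in 11 of 12 libraries.

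**Figure D1:**
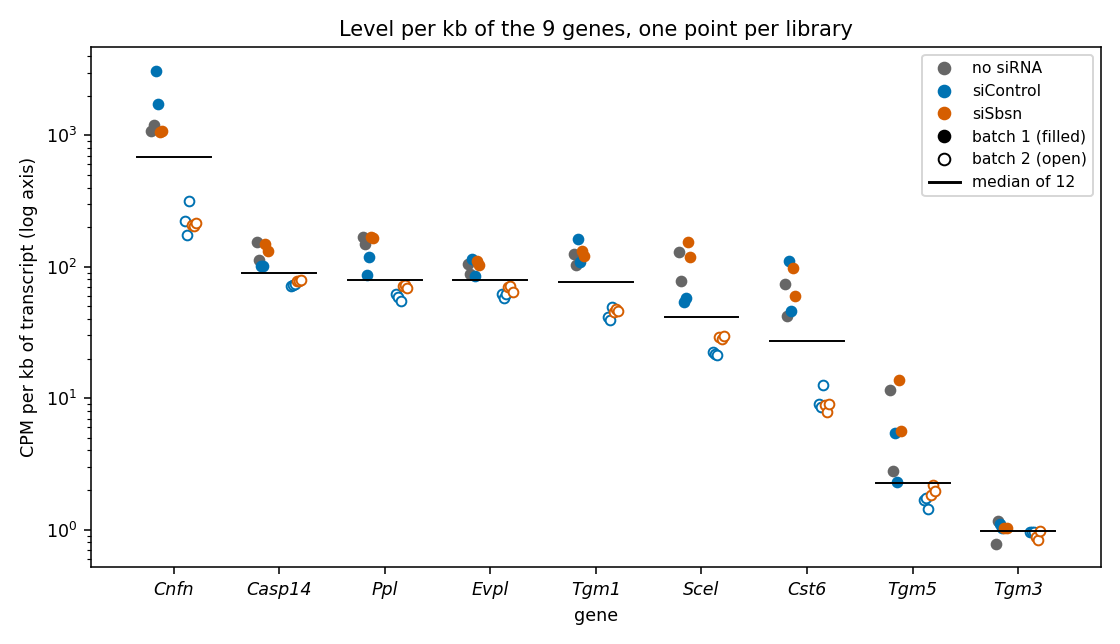
Level of each gene in CPM per kb of transcript on a log axis, 1 point per library, coloured by condition, with batch 1 filled and batch 2 open and a line at the median of 12 libraries. *Cnfn* is at the top with a median of 686, *Tgm5* (2.25) and *Tgm3* (0.971) are at the bottom, and the open points lie below the filled ones for every gene but *Tgm3*.

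The main comparison asked how the 9 genes differed between siSbsn and siControl. *Scel*, *Ppl*, *Casp14* and *Tgm5* had higher levels with siSbsn than with siControl in both batches, *Cnfn* had a lower mean level, and *Tgm1*, *Tgm3*, *Evpl* and *Cst6* differed less. None of these differences passed the call rule, an absolute log2-fold change over 0.5 with a Benjamini-Hochberg q-value under 0.05 over all loci tested with edgeR. The rule called 0 of the 9 genes, and 0% of the 12857 loci tested. At an unadjusted p under 0.05, 5 of the 9 genes passed (*Scel*, *Ppl*, *Casp14*, *Cnfn*, *Tgm5*), against 19.2% of all loci tested. Without siControl batch 2 replicate 3 this count was 3 (10.3% of loci), and without siControl batch 1 replicate 1 it was 6 (16.1%). It was 4 (17.8%) with the trend on transcript length removed and 0 (6.84%) without a batch term. With a term for the library number in batch 1 it was 6 (31.9%). DESeq2 called 1 of the 9 genes, *Scel*, against 0.731% of loci, and limma-voom called 0.

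Among the scaffold genes, *Scel* showed the largest difference. In batch 1 it had 131 and 141 CPM with siControl and 376 and 287 CPM with siSbsn. In batch 2 it had 54.4, 53.3 and 52.3 CPM with siControl and 71.1, 68.8 and 72.5 CPM with siSbsn. Every siSbsn library was above every siControl library of its batch. The log2-fold change across batches was 0.77 (SE 0.16), with an edgeR p of 0.000525 and a q of 0.254. It was 1.25 (SE 0.28) in batch 1 and 0.41 (SE 0.057) in batch 2, where *Scel* ranked 2 of 12924 loci by p (4.2e-05, q 0.268). Without both numbered-1 libraries it was 0.58 (SE 0.097, q 0.0943). In bulk RNA, a change in the number of cells that express a gene and a change in RNA per cell cannot be told apart.

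*Ppl* behaved similarly at smaller size. With siControl it had 540.2 and 733 CPM in batch 1 and 386, 368 and 339.8 CPM in batch 2. With siSbsn it had 1039.5 and 1023 CPM in batch 1 and 439.9, 448 and 429 CPM in batch 2. No siSbsn value overlapped a siControl value of its batch. The log2-fold change was 0.45 (SE 0.11, edgeR p 0.00213, q 0.254) over both batches, 0.66 in batch 1 and 0.27 in batch 2. Without both numbered-1 libraries it was 0.33 (SE 0.065, q 0.0988).

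*Evpl*, which encodes the plakin partner of *Ppl*, had 736 and 546 CPM with siControl and 708 and 658 CPM with siSbsn in batch 1, where the groups overlapped. In batch 2 it had 396, 368 and 393 CPM with siControl and 448, 457 and 408 CPM with siSbsn, with no overlap. The log2-fold change over both batches was 0.15 (SE 0.092, q 0.320). It was 0.053 (SE 0.23) in batch 1 and 0.19 (SE 0.066, edgeR p 0.0192, q 0.462) in batch 2. *Evpl* and *Ppl* have the longest transcripts of the 9 genes, and when the trend of each library on transcript length was removed, the log2-fold change of *Evpl* became -0.088, that of *Ppl* 0.25 and that of *Cnfn*, the shortest, -0.21. That of *Scel* was 0.87 in the same fit.

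*Cnfn* went the other way, mainly in batch 1. It had 2151 and 1204 CPM in the siControl libraries of batch 1 and 739 and 758 CPM in the siSbsn libraries, with the highest value in siControl replicate 1. In batch 2 it had 157, 122 and 219 CPM with siControl and 144, 143 and 151 CPM with siSbsn, and these overlapped. The log2-fold change was -1.21 (SE 0.30, edgeR p 0.00542, q 0.309) in batch 1, -0.18 (SE 0.16, q 0.668) in batch 2 and -0.57 (SE 0.23, q 0.257) over both. Without both numbered-1 libraries it was -0.30 (SE 0.15, q 0.255), and without siControl batch 1 replicate 1 alone it was -0.34 over both batches and -0.70 in batch 1. Leaving out siControl batch 2 replicate 3 turned the batch 2 value to 0.059.

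Of the cross-linking enzymes, *Tgm1* showed little difference. It had 465 and 308 CPM with siControl and 376 and 342 CPM with siSbsn in batch 1. In batch 2 it had 119, 112 and 140.4 CPM with siControl and 130.0, 137 and 132 CPM with siSbsn. The groups overlapped in both batches, and the log2-fold change over both was 0.026 (SE 0.12, q 0.891).

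*Tgm5* was low and variable in batch 1, with 14.1 and 6.03 CPM under siControl and 35.7 and 14.8 CPM under siSbsn. In batch 2 it had 4.39, 4.51 and 3.77 CPM with siControl and 4.76, 5.73 and 5.16 CPM with siSbsn. The siSbsn values were the higher ones in both batches, though the nearest libraries were close, at 14.1 and 14.8 CPM in batch 1 and 4.51 and 4.76 CPM in batch 2. The log2-fold change was 0.74 (SE 0.31, edgeR p 0.0380, q 0.257) over both batches, 1.28 (SE 0.75) in batch 1 and 0.29 (SE 0.12) in batch 2. Over both batches it came to 0.40 (edgeR p 0.0978), and in batch 1 to 0.52, when siSbsn batch 1 replicate 1 was left out, and without siControl batch 1 replicate 2 it was 0.49 (edgeR p 0.0792) over both. Without both numbered-1 libraries it was 0.58 (SE 0.17, q 0.134). *Tgm3* lay between 3.23 and 4.82 CPM in all 12 libraries, with a log2-fold change of -0.071 (SE 0.097, q 0.640).

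The protease and the protease inhibitor differed from each other. *Casp14* had 238 and 236 CPM with siControl and 350.2 and 305 CPM with siSbsn in batch 1, and 167, 169 and 173 CPM against 183, 181 and 184 CPM in batch 2. The siSbsn values were higher without overlap in both batches. Its log2-fold change was 0.26 (SE 0.084, edgeR p 0.0106, q 0.254) over both batches, 0.43 in batch 1 and 0.11 in batch 2, and without both numbered-1 libraries it was 0.18 (SE 0.056, q 0.140). *Cst6* had 439 and 181 CPM with siControl and 387 and 238 CPM with siSbsn in batch 1, and 35.4, 33.6 and 49.8 CPM against 35.3, 30.8 and 35.4 CPM in batch 2. These groups overlapped in both batches, and the log2-fold change was -0.12 (SE 0.23, q 0.740).

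Counted over the 9 genes, 4 had every siSbsn library above every siControl library of its batch in both batches (*Tgm5*, *Ppl*, *Scel*, *Casp14*), against 5.13% of the 12857 loci. None was below in both batches, against 4.22% of loci. For each of the 4 the exact permutation test within batches (two-sided, 120 arrangements, 9 genes tested) gave p = 0.0167, the smallest it can give. Full separation in both batches gives this p for any locus, so it adds nothing to the count. The same exact permutation test gave p = 0.117 for *Cnfn* and p = 0.133 for *Evpl*. Without the numbered-1 siControl and siSbsn libraries of batch 1, a count chosen after seeing the data, 5 of the 9 genes were above in both batches, *Evpl* being the added one, against 8.34% of loci. In that fit *Scel*, *Ppl*, *Evpl*, *Tgm5* and *Casp14* had an unadjusted p under 0.05, and 0 genes of the 9 were called.

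**Figure D2:**
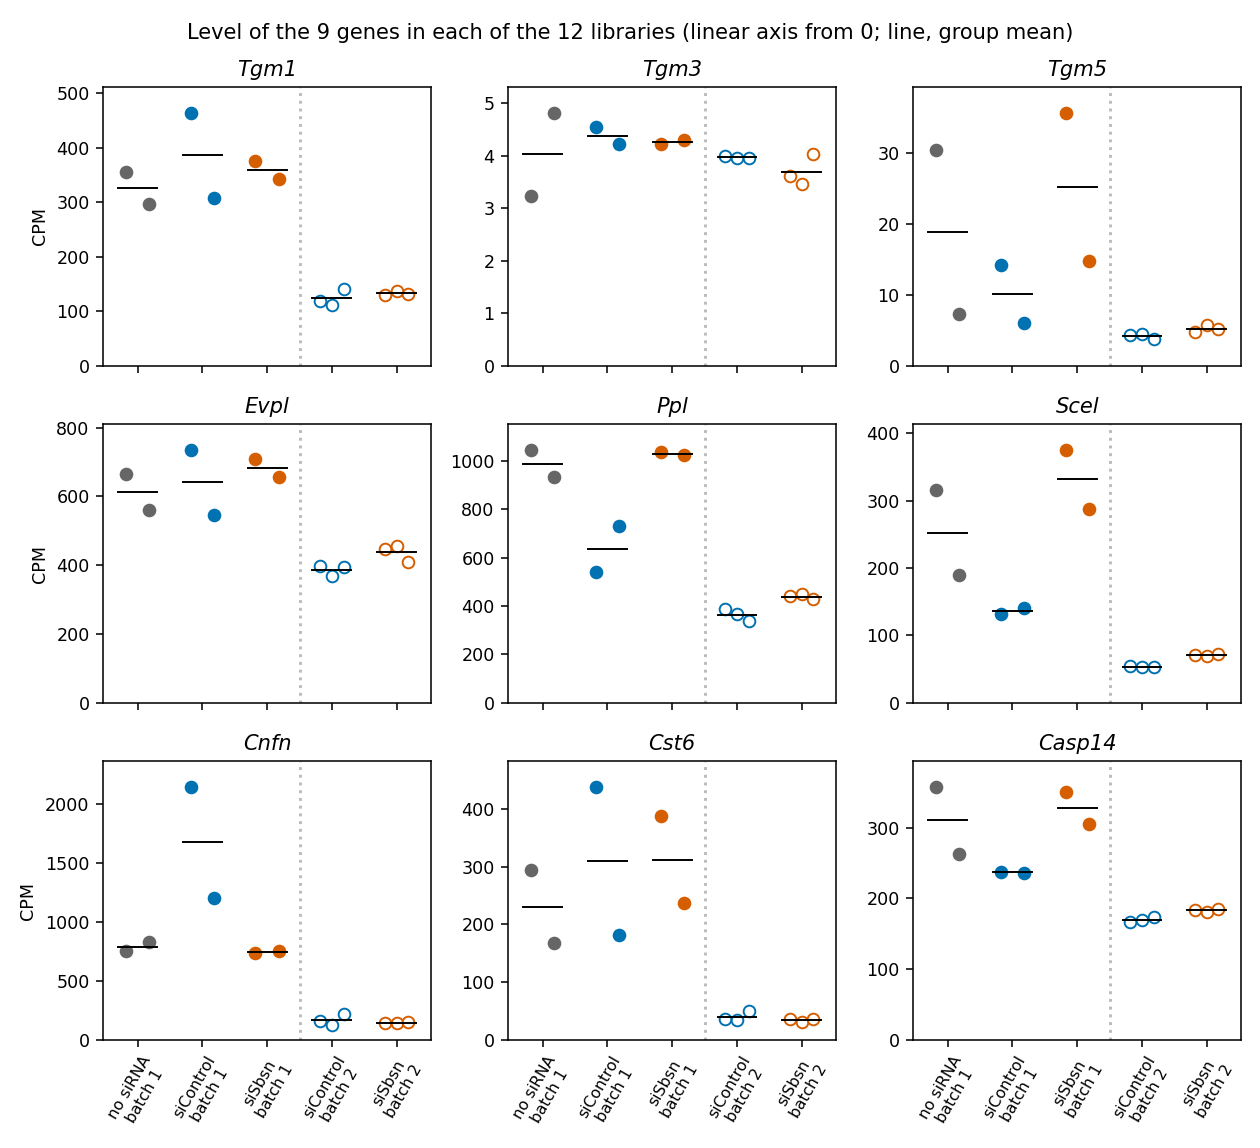
CPM of each gene in the 12 libraries, 1 point per library, by condition and batch, on linear axes from 0 with a line at each group mean. For *Scel*, *Ppl*, *Tgm5* and *Casp14* the siSbsn points lie above the siControl points of the same batch, and *Cnfn* is highest in siControl batch 1 at 2151 and 1204 CPM.

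Within batch 1, 0 of the 9 genes were called and 3 had an unadjusted p under 0.05 (*Scel*, *Cnfn*, *Ppl*), against 0% called and 15.8% with such a p among the 13176 loci tested. With edgeR, leaving out siControl batch 1 replicate 2, which keeps the library that stands apart, raised the count of called genes to 2, *Cnfn* at -1.58 (q 0.0293) and *Ppl* at 0.88 (q 0.0339), while 19.3% of all loci were called in that fit. Leaving out replicate 1 in its place gave -0.70 for *Cnfn* and 0.48 for *Ppl*, with 0 genes called. DESeq2 called *Scel* and *Cnfn* in batch 1, against 1.32% of loci. Within batch 2, 0 of the 9 genes were called and 4 had an unadjusted p under 0.05 (*Scel*, *Ppl*, *Evpl*, *Tgm5*). Of the 12924 loci tested there, 0.00774% were called and 10.2% had such a p. Without siControl batch 2 replicate 3, 5 of the 9 genes had such a p, against 11.4% of loci. In that fit the log2-fold changes of *Ppl* (0.21) and *Tgm5* (0.21) were their lowest with 1 library left out.

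**Figure D3:**
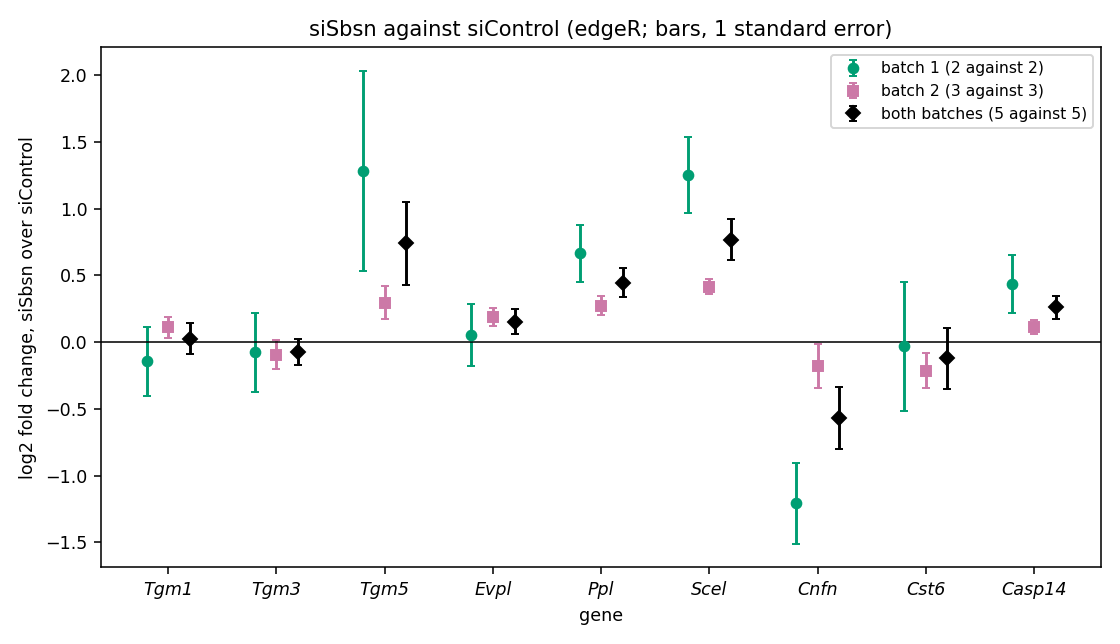
Log2-fold change of siSbsn over siControl for each gene from edgeR, in batch 1, in batch 2 and over both batches, with bars of 1 standard error. *Scel* is at 1.25 in batch 1 and 0.41 in batch 2, *Tgm5* is at 1.28 with a wide bar and 0.29, and *Cnfn* is at -1.21 and -0.18.

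The difference between the batches was tested with an interaction term, as the siSbsn effect in batch 2 minus that in batch 1. It was -0.86 for *Scel* (SE 0.17, edgeR p 0.000602, q 0.265), 1.00 for *Cnfn* (SE 0.37, p 0.0224, q 0.291) and -0.34 for *Casp14* (SE 0.13, p 0.0268, q 0.298). For each of the 3 genes the effect was nearer to 0 in batch 2. *Sbsn* itself had a log2-fold change of 0.029 (SE 0.45) in batch 1 and -1.64 (SE 0.10) in batch 2. The batch 1 value averages unlike siSbsn libraries, at 1965 and 696 CPM of *Sbsn*, against 1189 and 1356 CPM with siControl. Whether the effects of the 3 genes follow the level of *Sbsn* was not tested. These 3 of 9 genes passed an unadjusted p of 0.05, against 15.1% of loci, and 0 of 9 were called, against 0% of loci. DESeq2 called *Scel* in this test, against 1.67% of loci. Without siControl batch 1 replicate 2, edgeR called 5 of the 9 genes (*Scel*, *Ppl*, *Cnfn*, *Casp14*, *Tgm1*), with 37.8% of all loci called in that fit. Without siSbsn batch 1 replicate 2 it called 1, *Scel*, against 3.37% of loci, and without siControl batch 1 replicate 1 the *Cnfn* value was 0.52 (q 0.508).

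The 2 no siRNA libraries of batch 1 show on which side the siControl and siSbsn cultures lay. *Scel* had 315 and 189 CPM without siRNA, and the siControl mean was 53.9% of the no siRNA mean, while the siSbsn mean was 131% of it. *Ppl* had 1048 and 933 CPM without siRNA, with siControl at 64.3% and siSbsn at 104%. *Cnfn* had 750.5 and 829 CPM without siRNA, with siControl at 212% and siSbsn at 94.7%. For all 3 genes it was the siControl libraries that lay outside the range of the no siRNA libraries, and the siSbsn libraries that overlapped it. Each group had 2 libraries, and siControl replicate 1 is the library that stands apart. The share of all loci with this order was not counted.

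*Casp14* had 358 and 263 CPM without siRNA, with siControl at 76.3% without overlap and siSbsn at 106%. The share of all loci with such a lack of overlap was not counted, so it is not shown to be particular to these genes. *Tgm5* had 30.4 and 7.25 CPM without siRNA, a spread within which both other groups overlapped. *Tgm1* (356 and 296 CPM), *Evpl* (664 and 562 CPM), *Cst6* (294 and 167 CPM) and *Tgm3* (3.23 and 4.82 CPM) overlapped with both other groups. The comparisons with no siRNA share these libraries, and each shares a group with the comparison of siSbsn with siControl, so their values are set side by side only.

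For siControl against no siRNA, edgeR called 0 of the 9 genes, and 0% of loci. In all, 3 genes had an unadjusted p under 0.05, against 16.1% of loci: *Cnfn* with a log2-fold change of 1.13 (SE 0.30, p 0.00751, q 0.308), *Scel* with -0.86 (SE 0.28, q 0.308) and *Ppl* with -0.61 (SE 0.21, q 0.308). Without siControl batch 1 replicate 1 the values were 0.62 for *Cnfn*, -0.83 for *Scel* and -0.43 for *Ppl*, and 0 genes were called. Without siControl batch 1 replicate 2, *Cnfn* and *Ppl* were called, at 1.50 and -0.82, and so were 23.7% of all loci. Without no siRNA replicate 1 the *Scel* value was -0.45 (edgeR p 0.194), and without no siRNA replicate 2 it was -1.18. For siSbsn against no siRNA, 0 of the 9 genes were called, against 0% of loci, and 0 had an unadjusted p under 0.05, against 0.175% of loci. The log2-fold changes of siSbsn against no siRNA ran from -0.079 for *Cnfn* to 0.44 for *Cst6*, and the value of *Cst6* was 0.047 without siSbsn batch 1 replicate 1 and 0.90 without no siRNA replicate 1.

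**Figure D4:**
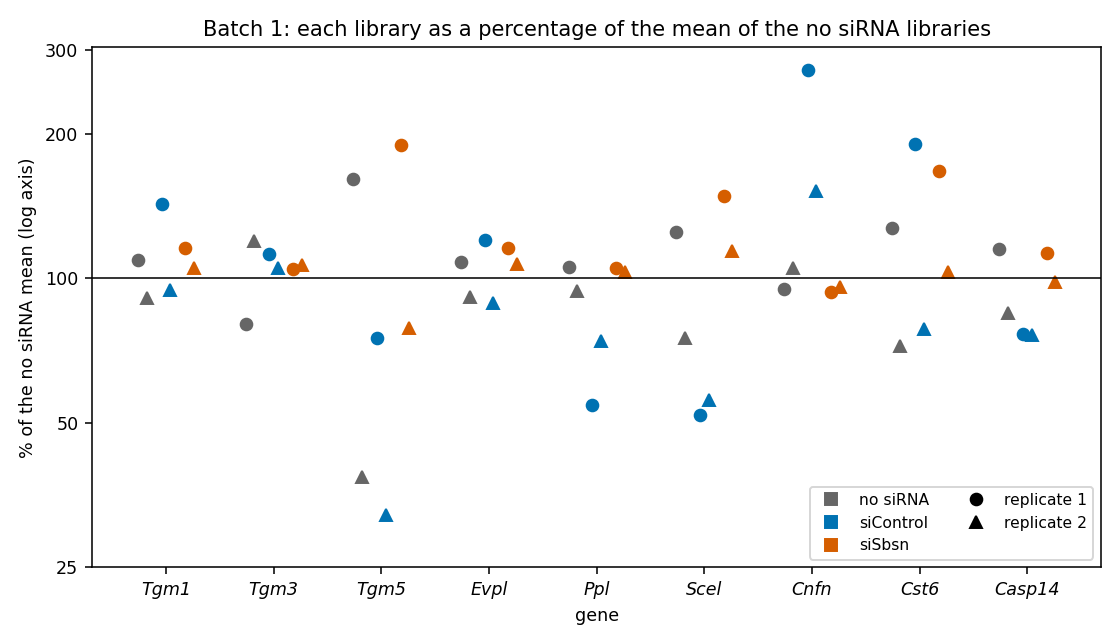
Each batch 1 library as a percentage of the no siRNA mean of the gene, on a log axis, with colour for the condition and shape for the replicate number. The siControl means are 53.9% for *Scel*, 64.3% for *Ppl* and 212% for *Cnfn*, and the siSbsn means of all 9 genes lie between 94.7% and 135%.

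The summed levels of markers of other cell types were set beside these groups in batch 1. Of 6 fibroblast markers, 5 had a locus, none at 0, and their summed level was 476 to 919.6 CPM without siRNA, 409.6 to 423 CPM with siControl and 483 to 1154 CPM with siSbsn. In batch 2 it was 368 to 413 CPM with siControl and 349.6 to 385 CPM with siSbsn. *Col1a1* was the largest part, at 725 and 902 CPM in the numbered-1 libraries of no siRNA and siSbsn. It was 335 to 385 CPM in the other batch 1 libraries. *Dcn* and *Lum* overlapped between siControl and no siRNA. Of 5 immune markers, 4 had a locus, with *Cd207* at 0, and they summed to 2.37 to 9.14 CPM without siRNA, 2.85 to 2.92 CPM with siControl and 2.97 to 8.57 CPM with siSbsn in batch 1. The immune range of siControl lay within that of no siRNA. *Lyz2* alone had 7.07 and 6.35 CPM in the numbered-1 libraries of no siRNA and siSbsn. The part of fibroblast or immune markers in the differences of *Scel*, *Ppl*, *Tgm5* and *Casp14* was not tested.

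Between the batches the differences of these genes were larger. From batch 1 to batch 2, edgeR called 8 of the 9 genes, all lower in batch 2, against 21.3% of loci called lower. *Cst6* fell by 3.10 on the log2 scale (SE 0.24, q 7.63e-06) and *Cnfn* had a value of -2.88 (SE 0.24, q 1.15e-05). The values were -1.81 for *Scel*, -1.80 for *Tgm5*, -1.55 for *Tgm1*, -1.03 for *Ppl*, -0.69 for *Evpl* and -0.67 for *Casp14*, and q over the 8 called genes ran from 7.55e-06 to 0.000963. *Tgm3* had a value of -0.18 (SE 0.099, q 0.147) and was not called. The median of the 9 genes was -1.55, against -0.022 over all loci tested.

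The same split is seen library by library, no siRNA included. *Cst6* ranged from 167 to 439 CPM with a median of 266 CPM in the 6 libraries of batch 1, and from 30.8 to 49.8 CPM with a median of 35.3 CPM in those of batch 2. *Cnfn* ranged from 739 to 2151 CPM in batch 1 and from 122 to 219 CPM in batch 2. *Tgm1* ranged from 296 to 465 CPM in batch 1 and from 112 to 140.4 CPM in batch 2. For 8 of the 9 genes every batch 2 library was below every batch 1 library, against 16.4% of loci.

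*Tgm5* came close to overlap, with 6.03 CPM as its lowest value in batch 1 and 5.73 CPM as its highest in batch 2. Without the numbered-1 libraries of siControl and siSbsn, 8 genes still did not overlap in the 10 libraries left, the same number were called lower, against 15.2% of all loci, and the median was -1.12. In the siControl libraries alone 6 of the 9 were called lower, against 10.6% of all loci, *Tgm5* (-1.26, q 0.0628) and *Casp14* (-0.49, q 0.0422) falling outside the rule. The suprabasal markers, 7 of 7 with a locus and none at 0, summed to 1482 to 3701 CPM in batch 1. In batch 2 they summed to 472 to 909 CPM. This sum holds *Sbsn* itself, which with *Krtdap* was the largest part in every library. The markers did not move as one. *Sbsn* (-2.63), *Ivl* (-2.32) and *Lor* (-1.82) were called lower in batch 2, and *Krt10* (0.99) was called higher. *Krt1* (-1.25, q 0.155) and *Flg* (0.028) were not called. Melanocyte markers, 4 of 5 with a locus and none at 0, summed to 369 to 529 CPM in batch 1 and 631 to 704 CPM in batch 2. Their part in the batch difference was not tested.

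The genes that work with these 9 were taken from lists by function. The list of plakins and junction partners, which holds desmosome genes and also plakins that act elsewhere, had 16 of 18 genes tested. With siSbsn against siControl over both batches 0 were called, 14 were above 0 and 11 had an unadjusted p under 0.05, against 19.2% of all loci. The median log2-fold change was 0.42, against 0.0055 over all loci. The trend on transcript length, whose removal lowered the values of *Evpl* and *Ppl*, was not removed for this list. The part of transcript length in this median was not tested. The desmosomal cadherins *Dsc1* (0.92, SE 0.38, q 0.257) and *Dsg1a* (0.75, SE 0.24, q 0.254) had the largest values. Against no siRNA the siControl libraries of batch 1 had 4 of 16 above 0 and a median of -0.56, and the siSbsn libraries had 13 of 16 above 0 and a median of 0.14. *Dsg1a* has near-identical neighbours in the mouse genome, and reads that align to more than 1 of them were not counted.

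Transglutaminase substrates of the envelope, other than those among the 9 genes, had 15 of 19 genes tested. With siSbsn 0 were called, 8 were above 0 and the median was 0.061. *Flg* (1.13, SE 0.49, q 0.257), the precursor of filaggrin, and *Flg2* (0.70, SE 0.29, q 0.257) had the largest values. In batch 2 against batch 1, 9 of 15 were called lower, against 21.3% of all loci, among them *Ivl*, which encodes involucrin, at -2.32, and *Krt6b* at -2.08. The other 3 called were higher, against 16.4% of all loci, the largest being *Krt10*, a keratin of suprabasal cells, at 0.99 and *Flg2* at 0.83.

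Of 6 further members of the transglutaminase family, 2 were tested. *Tgm2* had a log2-fold change of -0.24 (SE 0.19, q 0.423) and *F13a1* of -0.050 (SE 0.18, q 0.862) with siSbsn, and both were called lower in batch 2, at -1.09 and -0.59, against 21.3% of all loci. Of the proteases and inhibitors around *Cst6* and *Casp14*, 16 of 24 were tested. With siSbsn 0 were called, 4 were above 0 and the median was -0.074. The serine protease inhibitor *Spink5* (0.37, SE 0.12, q 0.254) and *Csta1* (-0.32, SE 0.19, q 0.318), a cystatin, had the largest values. In batch 2, 12 of 16 were called lower, against 21.3% of all loci, led by *Klk7* at -2.20, a serine protease that cleaves desmosomes, and *Ctsl*, a cathepsin that cystatin E/M inhibits, at -2.06.

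The genes that attach lipid to the envelope had 11 of 12 tested. With siSbsn 0 were called, 9 were above 0 and the median was 0.16. *Alox12b* (-0.62, SE 0.19, q 0.254), a lipoxygenase, and *Pnpla1* (0.50, SE 0.16, q 0.254), which makes acylceramides, had the largest values. In batch 2 against batch 1, 10 of 11 were called lower, against 21.3% of all loci, with a median of -1.65, *Alox12b* (-3.07) and the epoxide hydrolase *Ephx3* (-2.69) the most.

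After the mean of each batch was subtracted, the 9 genes fell into patterns over the 12 libraries, given as Pearson's r of log2 CPM. The points share the siRNA groups and the libraries that stand apart, so r is a description. *Scel* ran with *Casp14* (r = 0.964) and with *Ppl* (r = 0.887). *Cnfn* ran against *Ppl* (r = -0.917) and *Scel* (r = -0.763). *Tgm1* ran with *Cst6* (r = 0.843) and *Evpl* (r = 0.820) and had r = 0.0028 with *Scel*. *Evpl* and *Ppl*, whose proteins form a pair, had r = 0.0879. *Tgm3*, at the lowest level, had r between -0.628 and 0.333 with the others.

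**Figure D5:**
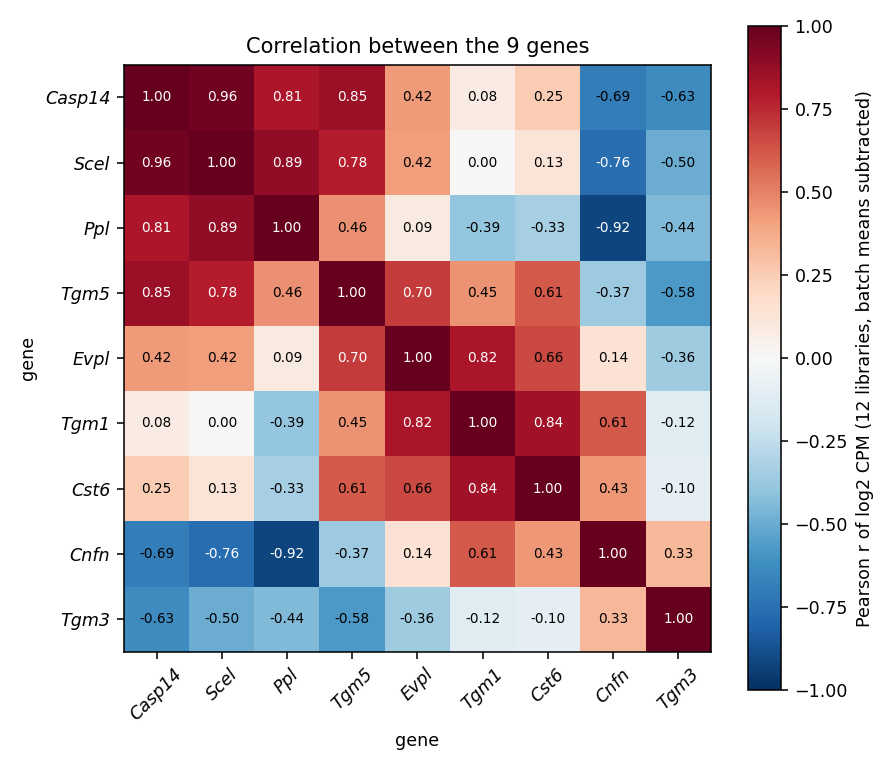
Pearson's r of log2 CPM between the 9 genes over 12 libraries after subtracting batch means, from -1 (blue) to 1 (red). *Casp14*, *Scel*, *Ppl* and *Tgm5* form a block of positive values from 0.46 to 0.96, and *Cnfn* is negative with all 4.

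Among the 10933 other loci compared in the same way, those most like *Tgm1* were *Gpatch11* (r = 0.983), *Sprr1a* (r = 0.980), a cross-linked envelope precursor, and *Klk10* (r = 0.979). Those most like *Scel* were *6430548M08Rik* (r = 0.985), *Arhgap1* (r = 0.985) and *Fech* (r = 0.983), and those most like *Cnfn* were *Atp5sl* (r = 0.991), *Bloc1s5* (r = 0.990) and *1110004E09Rik* (r = 0.988). In batch 1, 5 of the 9 genes (*Tgm1*, *Tgm5*, *Evpl*, *Cst6*, *Casp14*) had the higher value in the library numbered 1 in all 3 groups. The share of all loci with this order was not counted.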

How the data were processed

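RNA-Seq was measured in 12 libraries of mouse primary keratinocytes, grouped by treatment and batch from the labels. The authors aligned reads to mm10 with STAR, kept unique alignments and made a count per UCSC KnownGene gene. Their deposited table holds these counts as whole numbers, not normalized. Genes with near-identical copies may be counted too low, since reads with several alignments were dropped. Use of strand was not given in the sources used here. Of the 21947 loci, 4802 carry several gene names, and those joined by a comma were left out of the gene lists.

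edgeR 4.0.16 in R 4.3.3 was used to filter low counts (filterByExpr), to scale libraries (TMM) and to run its quasi-likelihood test. Batch was a term over both batches, and batch 1 was fitted with its 3 treatments as 1 factor. A locus was called where its q-value (Benjamini-Hochberg, all loci tested) was under 0.05 and its log2-fold change was beyond 0.5 in either direction, and for the interaction by the q-value alone. The study used DESeq2, run here (1.42.0) as an alternative beside limma-voom (limma 3.58.1). The study listed *Cnfn* among cornified envelope genes lowered by *Sbsn* knockdown, while DESeq2 as run here over both batches did not call it. The reason for this difference was not tested. Standard errors (SE) were derived from the fold change and its F statistic. The permutation test and the correlations used log2(CPM + 0.5), and the size of a library in CPM was scaled by TMM. Levels per kb used the longest GENCODE transcript of mm10. Single genes were also tested by an exact permutation within batches. Alternatives were RLE normalization, no filter, no batch term, libraries left out, a replicate block, a transcript length offset, and 1 fit of all 12 libraries. The scripts were tested on simulated data. The rule for named genes gives all 9 genes, *Sbsn*, the 3 loci most like *Tgm1*, *Cnfn* and *Scel*, and, per list, called genes or the 2 with the largest change. *Krt10* and the single cell type markers, other than *Sbsn*, were named after their values were seen. The 9 genes and the lists were chosen with earlier results of these data known.

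Replicates of a group were compared by their counts, and each of the 9 pairs differed by more than sampling noise, with a chi-square of 4.66 to 216 per degree of freedom. Total counts per library ranged from 27934836 to 49553923, so the gene with the fewest counts, *Tgm3*, had at least 100 per library.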

Additional observations from a re-analysis of the deposited data

Results flagged for a closer look

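The effect of siSbsn against siControl differed between the batches at an unadjusted p under 0.05 for 3 of the 9 genes, by edgeR's test of the interaction of batch and treatment, and none passed the adjustment over 12857 loci. For *Scel* the effect in batch 2 minus that in batch 1 was -0.86 on the log2 scale (SE 0.17, p 0.000602, q 0.265). Every siSbsn library was above every siControl library of its batch, and the log2-fold change was 1.25 in batch 1 and 0.41 in batch 2. With 1 library left out in turn it ran from -1.05 to -0.68, and edgeR called it without siControl batch 1 replicate 2 (q 0.00547) and without siSbsn batch 1 replicate 2 (q 0.00943). For *Cnfn* the difference was 1.00 (SE 0.37, p 0.0224, q 0.291). It was 0.52 (q 0.508) without siControl batch 1 replicate 1, the library that stands apart and holds the highest *Cnfn* value at 2151 CPM, and 1.32 (q 0.00884) without replicate 2. For *Casp14* the difference was -0.34 (SE 0.13, p 0.0268, q 0.298), from -0.45 to -0.27 with 1 library left out, and edgeR called it without siControl batch 1 replicate 2 (q 0.0396). The share of all loci that passed the same unadjusted p was 15.1%. *Sbsn* itself had a log2-fold change of 0.029 in batch 1 and -1.64 in batch 2.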

How the results depend on the processing

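For siSbsn against siControl over both batches edgeR called 0 loci. DESeq2 called 94 loci and 1 of the 9 genes (*Scel*), the fit of all 12 libraries called 150 loci and 1 gene (*Scel*), and leaving out both numbered-1 libraries called 1 locus. *Tgm1* turned to -0.032 without a batch term and to -0.0014 in the 12-library fit, and *Evpl* turned to -0.088 with the length trend removed. With 1 library left out *Tgm1* ran from -0.030 to 0.15 and *Cst6* from -0.29 to 0.085.

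In batch 1 no filter called 851 loci and 3 of the 9 genes, DESeq2 called 174 and 2, and the 12-library fit called 1294 and 3, where *Cst6* turned to 0.012. With 1 library left out the calls ran from 0 to 2618 loci and from 0 to 2 genes, *Tgm1* from -0.43 to 0.21, *Evpl* from -0.17 to 0.31 and *Cst6* from -0.55 to 0.78. In batch 2, 1 locus was called, against 9 without a filter, 10 with DESeq2, 0 in the 12-library fit and 1 to 10 with 1 library left out, which took *Cnfn* from -0.34 to 0.059.

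For siControl against no siRNA no filter called 815 loci and 2 of the 9 genes, DESeq2 called 26 loci, and leaving out 1 library gave 0 to 3213 loci and 0 to 2 genes. The ranges were -0.074 to 0.57 for *Tgm1*, -0.11 to 0.47 for *Tgm3*, -1.63 to 0.51 for *Tgm5*, -0.16 to 0.32 for *Evpl* and -0.34 to 0.99 for *Cst6*. For siSbsn against no siRNA they were -0.18 to 0.40 for *Tgm3*, -0.34 to 1.80 for *Tgm5*, -0.022 to 0.15 for *Ppl*, -0.13 to 0.32 for *Casp14* and, without a turn, 0.047 to 0.90 for *Cst6*.

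For the interaction no filter called 17 loci, DESeq2 called 215 loci and 1 of the 9 genes, and leaving out 1 library gave 0 to 4905 loci and 0 to 5 genes. The ranges were -0.10 to 0.45 for *Tgm1*, -0.11 to 0.0029 for *Tgm3*, -0.13 to 0.27 for *Evpl* and -0.99 to 0.25 for *Cst6*. Between the batches the siControl libraries alone called 1940 loci, against 4852 in all, and the call of 8 of the 9 genes held with 1 library left out, whichever it was. Where 1 group kept a single library, that library was taken to vary like the others. The causes were not tested.

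A replicate block for numbers 1 and 2 of batch 1 was fitted for siSbsn against siControl over both batches and for the 3 comparisons within batch 1, called 0 loci and 0 of the 9 genes in these 4 fits, and turned *Cst6* to 0.064 in batch 1. The number of loci at an unadjusted p under 0.05 went from 2464 to 4100 over both batches. The differences of number 1 minus number 2 correlated between the groups at 0.303, 0.678 and 0.356 across loci, and the libraries share only a number.

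Of the single-gene values under alternatives other than leaving out 1 library in turn, 313 kept their direction and side of the rule, 13 passed it newly, 2 lost it (*Tgm5* and *Casp14* between the batches in siControl alone) and 5 turned. The depth limits *Tgm3* and *Tgm5* most, at 100 to 186 and 117 to 1296 counts per library.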
